A study of Mus musculus with 4 samples.

Results

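Imprint protection and insulator factors are proteins that keep parental methylation marks in place at imprinted genes, or that turn such marks into a choice of which allele is transcribed. The group held 10 genes chosen by name: Zfp57, Trim28, Setdb1, Dppa3, Ctcf, Ctcfl, Arid4a, Arid4b, Atrx and Daxx. All 10 were found by symbol among the 14099 named rows of each expression table, each in a row of its own that was not joined with another gene. Polyadenylated RNA had been sequenced from mouse embryonic stem cells (ESCs), with 2 libraries of Naa10-KO cells and 2 of wild-type (WT) cells. The ESCs of both genotypes were F1 hybrids of C57BL/6 mothers that carried the Naa10 deletion and JF1 fathers, and the WT lines were littermates of the Naa10-KO lines. All lines were kept in N2B27 medium with LIF and with inhibitors of Mek and Gsk3, for 5 passages on irradiated fibroblast feeders and for 5 more without them. The labels call the libraries biological replicates and do not say whether they came from separate lines or from cultures of the same line, so p-values cover the variation among these 4 libraries, which may be technical. Naa10 encodes the catalytic subunit of NatA, which acetylates the N-termini of new proteins, and the series title asks about its role in DNA methylation and imprinting.

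At an imprinting control region, one parental copy stays methylated through the wave of demethylation that follows fertilization. ZFP57 is a KRAB zinc finger protein that binds a methylated hexamer there and brings in TRIM28 (KAP1), a scaffold that recruits the H3K9 methyltransferase SETDB1 and DNA methyltransferases. DPPA3 (Stella), abundant in oocytes, naive ESCs and germ cells, shields the maternal genome and some paternal imprints from loss of methylation in the zygote. CTCF binds the unmethylated copy of some control regions, such as that of H19 and Igf2, and insulates promoters from enhancers, and CTCFL (BORIS) is its germline paralogue. ARID4A and ARID4B are subunits of Sin3-histone deacetylase complexes, and mice deficient in them have altered chromatin marks at the Prader-Willi control region. ATRX and DAXX form a chaperone that places histone H3.3 at silent repeats and imprinted regions.

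The promoters of 4 members are shown as context for their levels, the scaffold gene Trim28 and the insulator gene Ctcf because both Naa10-KO libraries lay above WT, and Setdb1 and Arid4b because both lay below. Each runs from 250 bases before to 50 bases after a transcription start annotated by RefSeq on GRCm38.p6, another build than the mm9 of the expression values. Capitals mark matches to the hexamer of ZFP57 (TGCCGC) or to the core of the insulator-associated factor YY1 (CAANATGGC), searched on both strands.
Trim28 (chr7:13023902-13024201, plus strand): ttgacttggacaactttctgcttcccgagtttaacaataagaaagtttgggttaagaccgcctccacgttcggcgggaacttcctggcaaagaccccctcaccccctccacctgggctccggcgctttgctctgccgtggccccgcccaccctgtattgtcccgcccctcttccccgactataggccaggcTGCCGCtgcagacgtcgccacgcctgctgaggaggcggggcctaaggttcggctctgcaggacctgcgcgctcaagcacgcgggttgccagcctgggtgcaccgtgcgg
Ctcf (chr8:105636288-105636587, plus strand): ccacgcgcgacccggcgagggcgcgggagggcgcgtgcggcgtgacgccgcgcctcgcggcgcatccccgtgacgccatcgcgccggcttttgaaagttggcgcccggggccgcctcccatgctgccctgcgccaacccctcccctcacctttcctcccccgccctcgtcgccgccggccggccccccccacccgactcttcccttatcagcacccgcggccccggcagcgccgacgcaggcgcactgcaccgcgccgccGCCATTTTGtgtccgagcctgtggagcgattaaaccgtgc
Setdb1 (chr3:95357153-95357452, minus strand): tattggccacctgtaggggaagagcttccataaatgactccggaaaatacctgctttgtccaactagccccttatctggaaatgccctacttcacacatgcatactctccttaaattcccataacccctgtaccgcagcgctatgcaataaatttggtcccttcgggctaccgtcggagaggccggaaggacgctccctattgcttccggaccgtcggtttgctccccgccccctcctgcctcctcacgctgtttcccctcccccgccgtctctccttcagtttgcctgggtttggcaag
Arid4b (chr13:14063534-14063833, plus strand): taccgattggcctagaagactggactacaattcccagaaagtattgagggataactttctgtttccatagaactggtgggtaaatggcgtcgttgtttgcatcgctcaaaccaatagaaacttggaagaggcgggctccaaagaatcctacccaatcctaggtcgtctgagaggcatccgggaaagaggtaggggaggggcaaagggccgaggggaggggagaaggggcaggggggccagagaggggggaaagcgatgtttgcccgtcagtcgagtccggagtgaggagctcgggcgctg

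The hexamer of ZFP57 occurred in the promoter of Trim28 and in no other of the 7 members with a RefSeq promoter at hand, against 11.6% of all 32851 promoters in that table. The YY1 core, a motif chosen after the sequences had been read, occurred in those of Ctcf, Atrx and Daxx (the last 2 not printed), against 2.51% of all promoters. Given that late choice, and as members were counted by gene and the rest by promoter, this is no sign of enrichment. CpG content divided the members too. The 300 bases held 47 CpG dinucleotides at Ctcf, 23 at Trim28, 15 at Setdb1, 14 at Arid4b and 11 at Atrx. The 3 annotated starts of Daxx had 32 or 33 and those of Zfp57 had 4 to 9, beside a median of 7 over all promoters. Dppa3, Ctcfl and Arid4a had no entry.

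No member passed the test for a difference between Naa10-KO and WT. The test was limma on log2(RPKM + 1), with Benjamini-Hochberg adjustment over the 11912 rows that reached 1 RPKM in at least 2 libraries, and a row was called at an adjusted p under 0.05. RPKM are read numbers divided by transcript length and by the mapped reads of the library, and differences on this scale understate those of low genes. Of all rows, 91 passed, 26 of them higher and 65 lower in Naa10-KO (0.764%). At an unadjusted p under 0.05 there were 5 members, Arid4a, Arid4b, Ctcfl, Setdb1 and Trim28, and 22.1% of all rows. Ctcfl entered the test only through its WT libraries, where it is higher, and the members were chosen with earlier results of these data known. The count of 5 is thus no independent sign of a difference. An exact permutation test of a single gene over these libraries cannot go below a two-sided p of 0.333. The targeted gene shares a row with its neighbour Renbp, and the joint value fell to 28.9 and 34.4 RPKM in Naa10-KO, against 105 and 106 RPKM in WT (limma adjusted p = 0.0342). It did not pass in a fit without small RNA rows and rows at 0, nor without either WT library.

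For 4 members (Trim28, Dppa3, Ctcf and Daxx) the Naa10-KO libraries were both above the WT pair, for 5 they were both below it, and Atrx had them on opposite sides. Ctcfl is in the count below WT, which it entered through the group where it is high. Over all tested rows, 24.4% lay above, 34.9% lay below and 25.3% had the Naa10-KO libraries on opposite sides. A gene whose groups do not overlap is therefore common in these data. The Naa10-KO libraries also differed more from each other than the WT libraries did, with a median absolute gap of 0.25 against 0.05 on the log2 scale over all tested rows. The members' median absolute difference was 0.32 on the log2 scale, beside 0.22 over all tested rows. As the members were chosen with earlier results of these data known, this is no independent sign of a larger difference. Estimated from the steps between low values, depth was 73700000 and 85400000 fragments in Naa10-KO and 50600000 and 51900000 in WT.

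**Figure D1:**
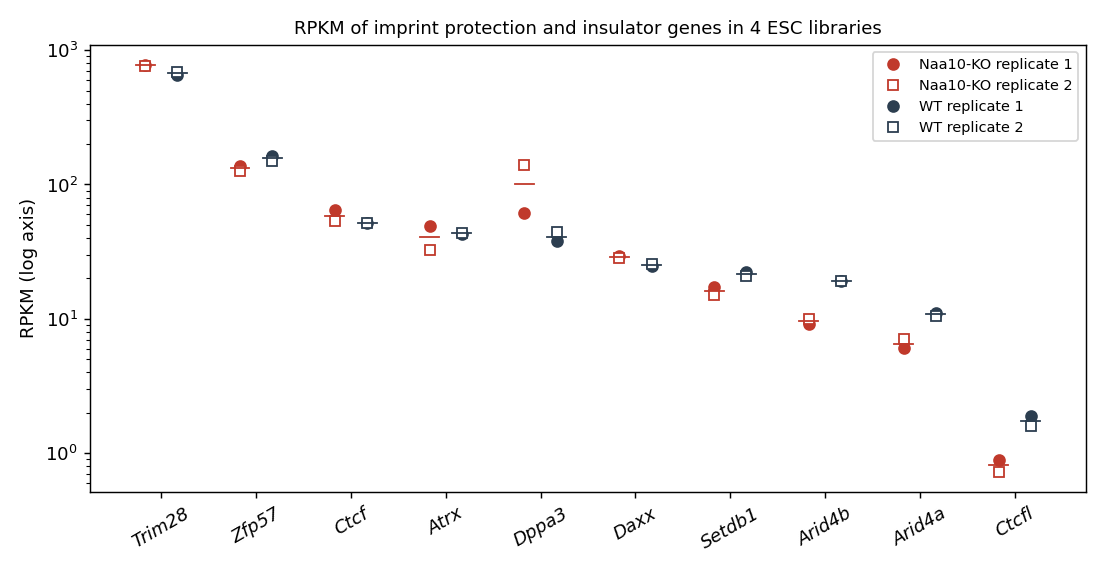
RPKM of the 10 genes on a log axis, with Naa10-KO (red) left of WT (dark) and a short line at the mean of the 2 libraries. Trim28 stood highest and Ctcfl lowest in both genotypes, and the Naa10-KO libraries lay farthest apart at Dppa3, at 61.2 and 140 RPKM.

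RPKM are scaled to transcript length, so levels may be set side by side between genes. In WT the order by mean level was Trim28, Zfp57, Ctcf, Atrx, Dppa3, Daxx, Setdb1, Arid4b, Arid4a and Ctcfl. Only the neighbours Atrx and Dppa3 overlapped between libraries there. In Naa10-KO, Dppa3 followed Zfp57, and it overlapped Zfp57 above it and Ctcf below it. The order of the others was as in WT.

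The silencing axis that reads imprints was led by the scaffold. Trim28 had 775 and 763 RPKM in Naa10-KO, against 656 and 691 RPKM in WT, which put it above 98.8% of tested rows in WT. Both Naa10-KO libraries were higher, by 0.20 and 0.18 on the log2 scale (limma difference 0.19, SE 0.07, adjusted p = 0.214). Its reader Zfp57 had 138 and 126 RPKM in Naa10-KO, against 164 and 149 RPKM in WT. Here both Naa10-KO libraries were lower, and the 95% interval of the log2 difference ran from -0.50 to 0.01 (adjusted p = 0.234). The gap between the WT libraries of Zfp57, 0.14, was as wide as that between the Naa10-KO libraries, 0.13.

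Setdb1, the methyltransferase of the axis, had 17.4 and 15.0 RPKM in Naa10-KO, against 22.4 and 20.9 RPKM in WT. Both Naa10-KO libraries were lower, at 74.7% of the WT mean together (log2 difference -0.40, SE 0.11, limma adjusted p = 0.172). Of all tested rows, 14.0% lay at least as far below WT. The transcript of Setdb1 shared 9.37% of its 50-base words with other annotated genes, most of them with Gm4349, and its exons overlapped those of Cers2 on the opposite strand, so part of its reads may not be its own. Within a library, the level of Trim28 was 44.5 and 51.0 times that of Setdb1 in Naa10-KO, and 29.3 and 33.0 times in WT. For Trim28 over Zfp57 the ratios were 5.62 and 6.08 in Naa10-KO, against 4.001 and 4.64 in WT. Such ratios do not depend on the scaling between libraries. Both had to separate the genotypes, as Trim28 lay above WT and Setdb1 and Zfp57 below it in both Naa10-KO libraries. They are thus no further sign of a difference.

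On the log2(RPKM + 1) scale the pair of Sin3 subunits stood farthest below WT, while Ctcfl, described below, was at a lower percentage of WT. Arid4b had 9.19 and 9.97 RPKM in Naa10-KO, against 19.01 and 19.13 RPKM in WT. The Naa10-KO mean was thus 50.2% of the WT mean, with 48.2% in replicate 1 and 52.3% in replicate 2. It had the smallest adjusted p of the 10 members (log2 difference -0.93, SE 0.09, limma adjusted p = 0.0654), and 2.24% of tested rows lay as far below WT or farther. Its exons overlap those of Ggps1 on the opposite strand, and no strand-specific protocol is stated. Estimated fragments were 3835 and 4821 in Naa10-KO and 5449 and 5623 in WT, so counting error was under 2% of each value.

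Arid4a, its paralogue and partner, had 6.06 and 7.03 RPKM in Naa10-KO, against 11.1 and 10.5 RPKM in WT. Both Naa10-KO libraries were again lower, at 60.4% of WT (log2 difference -0.65, SE 0.12, limma adjusted p = 0.120). In the longest coding transcripts of Arid4a and Arid4b, no 50-base word was found in a transcript of another annotated gene. Reads of that length from these transcripts can thus be told apart, and other isoforms were not compared. Arid4b exceeded Arid4a in every library, by 1.52 and 1.42 times in Naa10-KO and by 1.71 and 1.82 times in WT.

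**Figure D2:**
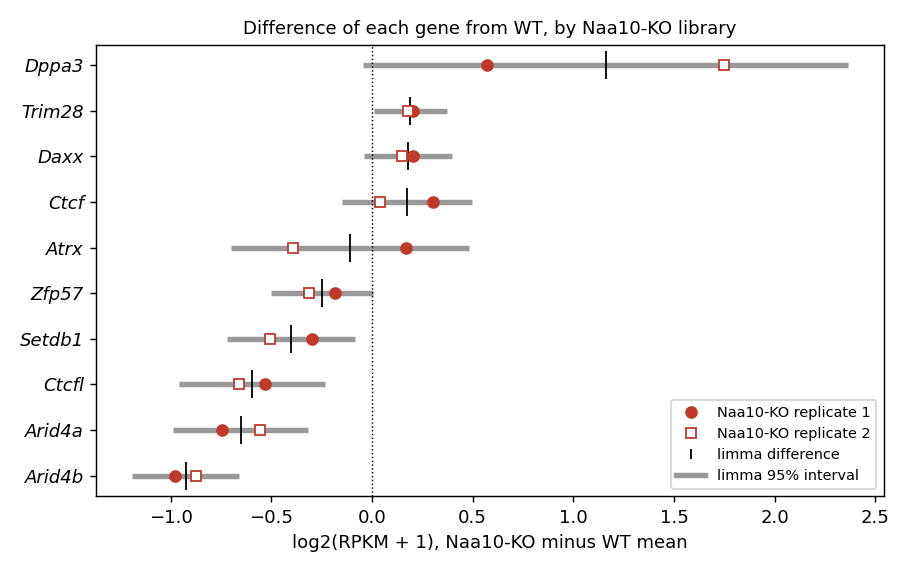
Difference of each gene from the WT mean on the log2(RPKM + 1) scale, with points for Naa10-KO replicates 1 (filled) and 2 (open), a tick at the limma difference and a grey bar for its 95% interval. Arid4b lies lowest at -0.93, and the interval of Dppa3, from -0.04 to 2.36, is the widest.

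The insulator gene Ctcf had 64.2 and 53.2 RPKM in Naa10-KO, against 51.9 and 51.6 RPKM in WT. Replicate 1 was 124% of the WT mean and replicate 2 was 103%, so most of the difference lay in replicate 1 (limma difference 0.17, 95% interval -0.15 to 0.50, adjusted p = 0.430). Without Naa10-KO replicate 1 the log2 difference was 0.04. The exons of Ctcf overlap those of Agrp and Gm5914 on the opposite strand, so part of its reads may not be its own. Ctcfl, normally limited to the germline, was low, at 0.893 and 0.731 RPKM in Naa10-KO, against 1.88 and 1.60 RPKM in WT. Both Naa10-KO libraries were lower, at 46.7% of the WT mean (log2 difference -0.60 on the scale with 1 RPKM added, adjusted p = 0.137). That difference was -1.01 when 0.1 RPKM was added instead.

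Ctcfl passed the filter on low values only through its WT libraries, as neither Naa10-KO library reached 1 RPKM. Its estimated fragments were 199 and 188 in Naa10-KO and 287 and 251 in WT, a counting error of 5.9% to 7.3% of each value. A share of 8.11% of its 50-base words was found in other genes, among them the antisense gene Ctcflos, which overlaps its exons. Ctcf exceeded Ctcfl 71.9-fold and 72.8-fold in Naa10-KO, against 27.6-fold and 32.2-fold in WT, and Ctcf shared no such word with it. This ratio had to separate the genotypes, as Ctcf lay above and Ctcfl below WT in both Naa10-KO libraries. Of 6 tested germ cell marker rows, 0 were called, beside 0.764% of all tested rows. In both Naa10-KO libraries 4 of them lay below and 2 above WT, beside 34.9% and 24.4% of all tested rows. Among the 6, Sycp1 passed the filter only with its WT libraries and Nanos3 only with its Naa10-KO libraries. With the untested Tdrd1, the 7 markers summed to 19.03 and 16.62 RPKM in Naa10-KO, against 28.8 and 27.0 RPKM in WT. No marker was listed at 0, and the part of these markers in the level of Ctcfl was not tested.

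Dppa3 had the largest absolute difference and the least even one. It stood at 61.2 and 140 RPKM in Naa10-KO, against 37.9 and 44.0 RPKM in WT. Replicate 1 was 150% of the WT mean and replicate 2 was 341%, both above either WT library. The gap between the Naa10-KO libraries, 1.18 on the log2 scale, was wider than that of 96.5% of tested rows, and the limma difference of 1.16 had an SE of 0.43 (adjusted p = 0.234). Without Naa10-KO replicate 2 the difference was 0.57, and without replicate 1 it was 1.75. In replicate 2, Dppa3 exceeded Zfp57, at 140 against 126 RPKM. The transcript of Dppa3 shared 17.7% of its 50-base words with other genes, mainly with its pseudogene copy Dppa3-ps. By this measure alone its level is less certain than those of Zfp57 or Arid4b.

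Markers of pluripotent cells differed between the Naa10-KO libraries in the same direction as Dppa3. The defining marker Pou5f1 was high throughout, at 924 and 971 RPKM in Naa10-KO, against 808 and 815 RPKM in WT. Of 8 ESC markers 0 were called, beside 0.764% of all tested rows. At the median the 8 markers stood -0.38 from WT on the log2 scale in Naa10-KO replicate 1 and 0.25 in replicate 2. Their summed level was 2047 and 2619 RPKM in Naa10-KO, against 2176 and 2163 RPKM in WT, with no marker at 0. Fibroblast feeder markers went the other way, with sums of 318 and 75.0 RPKM in Naa10-KO, against 117 and 124 RPKM in WT. None of the 11 was listed at 0, and 0 were called, beside the same 0.764% of all tested rows. Col1a1, a fibroblast collagen, had 36.9 and 8.48 RPKM in Naa10-KO, against 14.3 and 14.9 RPKM in WT. The part of either marker set in the level of Dppa3 was not tested, and fewer cells of a type cannot be told apart from less RNA per cell.

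**Figure D3:**
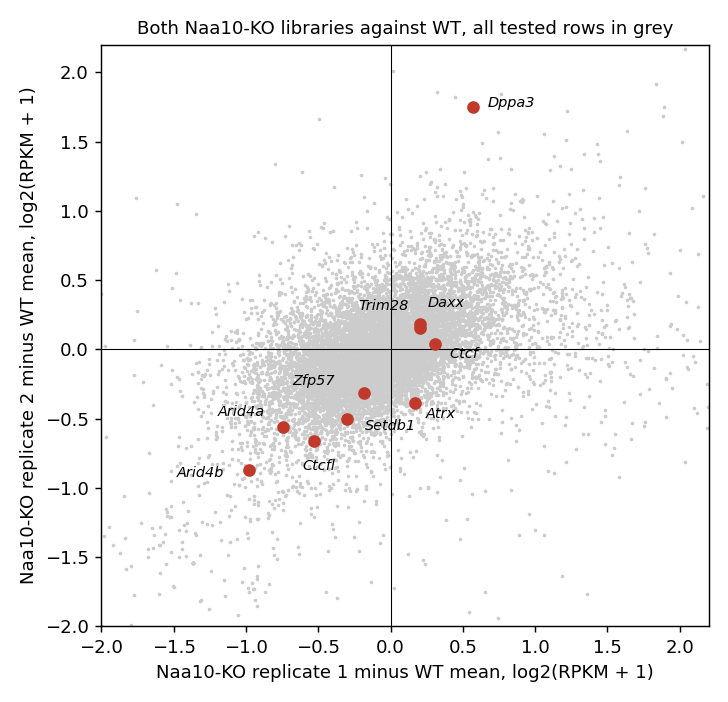
Difference from the WT mean on the log2(RPKM + 1) scale in Naa10-KO replicate 1 (horizontal) and replicate 2 (vertical), for the 10 genes (red) and all tested rows (grey, 158 of them outside the axes). Dppa3 stands at 0.57 and 1.75, and Atrx alone among the 10 has opposite signs, at 0.17 and -0.39.

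The chaperone of histone H3.3 gave a discordant pair. Atrx, its remodelling ATPase, had 48.9 and 32.8 RPKM in Naa10-KO, against 42.8 and 43.8 RPKM in WT. Replicate 1 lay above both WT libraries and replicate 2 below both (limma difference -0.11, 95% interval -0.70 to 0.48, adjusted p = 0.774). Daxx, the subunit that holds H3.3, had 29.3 and 28.2 RPKM in Naa10-KO, against 25.0 and 25.6 RPKM in WT. Both Naa10-KO libraries were higher, at 114% of the WT mean (log2 difference 0.18, SE 0.08, adjusted p = 0.281). Atrx exceeded Daxx 1.67-fold and 1.16-fold in Naa10-KO, against 1.72-fold and 1.71-fold in WT, so the ratio in replicate 1 was close to WT and that in replicate 2 was lower.

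None of the partner genes passed either, in 5 lists written down for the proteins that work with these factors or depend on them. Of all tested rows only 0.764% were called, so a count of 0 in lists this short says little about them. Among 20 tested rows of silencing partners of Trim28 and Setdb1, 0 were called, and 5 lay above and 9 below WT in both Naa10-KO libraries. Over all tested rows, 24.4% lay above and 34.9% below. The median log2 difference of the list was -0.06, as was that of all tested rows. In the fit without small RNA rows and rows at 0 the list median was -0.088 over 19 rows. Mphosph8, a subunit of the HUSH silencing complex, had 25.9 and 21.8 RPKM in Naa10-KO, against 33.5 and 34.8 RPKM in WT (limma adjusted p = 0.141). Atf7ip, which stabilizes Setdb1 protein, had 62.0 and 61.2 RPKM in Naa10-KO, against 45.1 and 42.8 RPKM in WT (adjusted p = 0.101). The binding partner thus lay above WT where Setdb1 itself lay below. One of 2 rows named Suv39h1 was listed at 0 in WT replicate 2 and gets no fold.

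Of 16 tested rows of cohesin and insulator partners of Ctcf, 0 were called, 9 lay below WT in both Naa10-KO libraries and 0 lay above, where 34.9% and 24.4% of all tested rows did so. Their median of -0.13 stood beside -0.06 for all tested rows, and it was -0.074 with each library centred on its median and -0.052 without Naa10-KO replicate 2. Smc3, a core ring subunit of cohesin, had 61.3 and 60.9 RPKM in Naa10-KO, against 79.8 and 80.8 RPKM in WT (limma log2 difference -0.39, adjusted p = 0.113). Nipbl, the loader, had 13.0 and 8.91 RPKM in Naa10-KO, against 13.5 and 13.6 RPKM in WT (adjusted p = 0.417), most of it from replicate 2. Histone H3.3 and its other chaperones had 0 of 9 tested rows called (median -0.04). In both Naa10-KO libraries 3 of them lay below WT and 0 above, beside the same 34.9% and 24.4% of all tested rows. Cabin1, a subunit of the HIRA complex, had 8.51 and 7.21 RPKM in Naa10-KO, against 10.9 and 10.5 RPKM in WT (adjusted p = 0.188). For Dek, a chromatin protein that acts as an H3.3 chaperone, the values were 121 and 114 RPKM in Naa10-KO and 143 and 148 RPKM in WT (adjusted p = 0.142).

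Partners of Arid4a and Arid4b in Sin3-Hdac complexes had 6 of 17 tested rows above and 8 below WT in both Naa10-KO libraries. Over all tested rows, 24.4% lay above and 34.9% below. Of the 17 rows 0 were called, and their median was -0.12. The rows farthest from WT were higher, unlike Arid4a and Arid4b. Brms1 had 23.2 and 21.8 RPKM in Naa10-KO, against 15.9 and 15.6 RPKM in WT (limma log2 difference 0.49, adjusted p = 0.117). Fam60a, a subunit abundant in ESCs, had 186 and 181 RPKM in Naa10-KO, against 131 and 132 RPKM in WT (adjusted p = 0.0896). Neither passed, as with the paralogous pair.

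Imprinted genes, the targets of these factors, had the highest median of these 5 lists. Of 17 tested rows 0 were called, and 9 lay above and 4 below WT in both Naa10-KO libraries. Over all tested rows, 24.4% lay above and 34.9% below. The median log2 difference of the list was 0.29, with 0.53 in replicate 1 and 0.31 in replicate 2. A list of imprinted genes had been examined in these libraries before, so this is no independent sign of a direction. Peg10, a retrotransposon-derived gene expressed from the paternal copy, had 190 and 132 RPKM in Naa10-KO, against 49.7 and 42.9 RPKM in WT (limma adjusted p = 0.0841). Dlk1, a paternally expressed Notch-related ligand, was low, at 3.74 and 1.01 RPKM in Naa10-KO, against 0.468 and 0.403 RPKM in WT, and passed the filter on low values only through its Naa10-KO libraries (adjusted p = 0.263). Kcnq1ot1 had 1.60 and 1.53 RPKM in Naa10-KO, against 1.003 and 0.613 RPKM in WT, and would not have passed that filter through WT alone. Dlk1 and Kcnq1ot1 are both in the count above WT, which they entered through the group where they are high. Airn, Nap1l5, Nespas and Rasgrf1 were not analysed here.

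**Figure D4:**
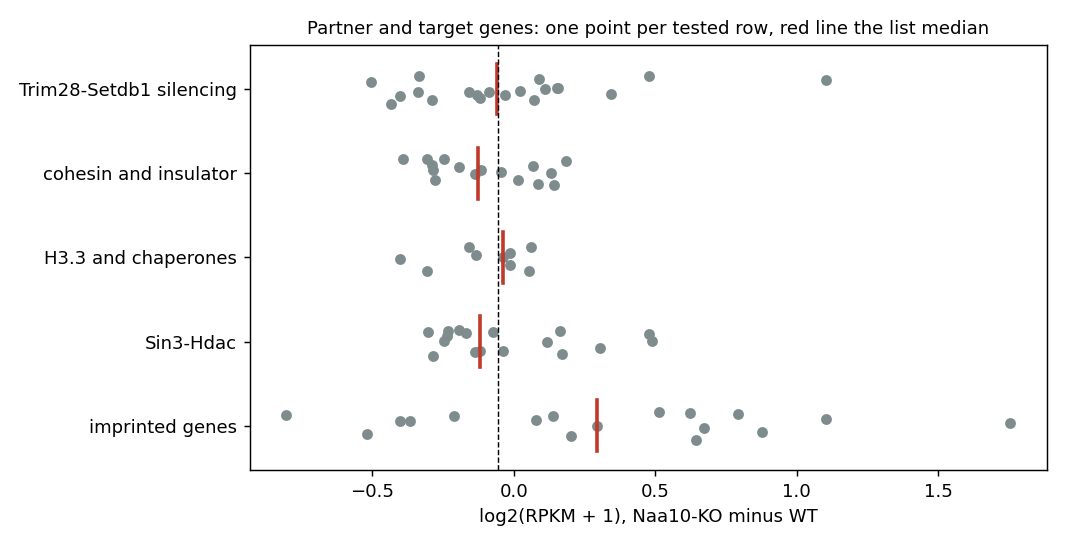
Log2 difference of Naa10-KO from WT for each tested row of the partner and target lists (grey points), with the list median (red line) and the median of all tested rows (dashed, -0.06). The point at 1.10 in the top list is the Suv39h1 row listed at 0 in WT replicate 2, and Peg10 stands alone at 1.75 among imprinted genes.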

How the data were processed

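Each of the 4 libraries had 1 table of RPKM per gene symbol, as deposited by the authors; the submitters' processing notes name mm9, Cufflinks and bedtools, and for aligner and annotation nothing is stated. Rows were kept as deposited. Tables were joined in Python 3.11.15 with pandas 2.3.3 and tested with limma 3.58.1 in R 4.3.3, with a mean-variance trend, on log2(RPKM + 1); the code was tested on simulated data. Residual degrees of freedom were 2, with 1.94 more borrowed across rows. Depth came from the total at which low values of genes with 1 annotated transcript became whole fragments, assuming fragments of 200 nt; estimated fragments rest on this and cover counting error only. Over genes with 100 to 500 such fragments, chi-square averaged 47.9 per gene for the Naa10-KO pair and 1.84 for the WT pair, where counting noise gives about 1; the WT libraries thus lay near that noise, and all 4 were kept as the labels name them; whether the WT pair is technical was not tested. Shared 50-base words and overlapping exons were read from GENCODE M21 (GRCm38); the read length is not stated. The members, lists and motifs were chosen with earlier results of these data known. Named genes were all members, the Naa10 row, Pou5f1, Col1a1 and, in each partner list, the 2 rows farthest from WT without overlap. Suv39h1, Kcnq1ot1, Nanos3, Prdm1, Dazl, Sycp1, Sycp3, Tdrd1, Gata3, Hand1, Zfp428 and the Zscan4 copies were named after their values were seen. Alternatives changed the pseudocount, filters, scaling, trend, replicate block and library left out.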

Additional observations from a re-analysis of the deposited data

How the results depend on the processing

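With no library left out, all 79 values of the members under the other settings stayed short of the threshold. The limma adjusted p of Arid4b ran from 0.0545 to 0.165. The log2 differences kept their direction, but only the other pseudocount and the centring could change them. Filters, trend and blocks leave the difference of a gene as it is, so their agreement in direction was fixed in advance. The count of all rows called was 40 with no filter on low values and 0 with rows at 0 and small RNA rows left out (11661 rows, 2627 of them at an unadjusted limma p under 0.05). The replicate numbers are not said to pair libraries, and the log2 gaps of the Naa10-KO and WT pairs correlated at -0.21 over tested rows. The replicate block gave 44 rows and a crossed pairing, chosen after seeing the data, gave 133; either called 1 imprinted row, Peg10, and 0 members. Centring each library on its median moved the list medians to -0.0067 for silencing partners, -0.074 for cohesin, 0.015 for H3.3 and -0.067 for Sin3-Hdac partners; a mean of at least 5 RPKM gave -0.085 for H3.3 and left Ctcfl untested.

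With 1 library left out, the library left alone takes the spread of the other pair, so calls follow that pair's spread: 12 to 7081 rows, 0 to 9 members, and 0 to 11 silencing, 0 to 8 cohesin, 0 to 5 H3.3, 0 to 10 Sin3-Hdac and 0 to 12 imprinted rows. The high counts came without a Naa10-KO library. List medians ran from -0.11 to -0.045 for silencing partners, -0.15 to -0.052 for cohesin, -0.16 to -0.037 for H3.3, -0.11 to -0.034 for Sin3-Hdac partners and 0.26 to 0.53 for imprinted genes. Atrx ran from -0.39 to 0.17, turning without Naa10-KO replicate 2. Among members, depth limits Ctcfl most, as given above.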

Other observations

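The germ cell markers included rows on either side of WT. Nanos3, which protects early germ cells, had 1.97 and 1.77 RPKM in Naa10-KO, against 0.409 and 0.682 RPKM in WT, and passed the filter on low values only through its Naa10-KO libraries (limma adjusted p = 0.111). Prdm1, a repressor that sets up the germline, had 2.12 and 2.32 RPKM in Naa10-KO, against 1.20 and 1.23 RPKM in WT (adjusted p = 0.136). Dazl, an RNA-binding protein of later germ cells, had 4.10 and 4.11 RPKM in Naa10-KO, against 8.17 and 6.57 RPKM in WT (adjusted p = 0.131). Sycp3, part of the synaptonemal complex of meiosis, had 4.14 and 3.15 RPKM in Naa10-KO, against 9.84 and 9.64 RPKM in WT (adjusted p = 0.0863). Tdrd1, a piRNA pathway gene that was too low to be tested, had 0.505 and 0.230 RPKM in Naa10-KO, against 0.336 and 0.255 RPKM in WT. None of the 4 tested genes passed, and these 5 genes were named after their values were seen.

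The remaining marker lists also had 0 rows called, beside 0.764% of all tested rows. The 3 tested markers of the 2-cell-like state, all near-identical Zscan4 copies, lay below WT in both Naa10-KO libraries. None of these copies would have passed the filter on low values through Naa10-KO alone. The 3 tested trophoblast markers lay above, but Gata3 and Hand1 would not have passed that filter through WT alone. Of 5 formative markers 3 lay above (median 0.35), and of 4 for primitive endoderm 1 lay above and 1 below (median 0.00061). Besides Zfp57, 260 tested rows carried a symbol of Zfp and a number, given to zinc finger genes of several kinds. Both Naa10-KO libraries lay below WT in 46.5% of them and above in 22.3%, against 34.9% and 24.4% of all tested rows. This set was chosen after values had been seen, so its shares are no independent sign of a direction. Limma called 1, Zfp428, which rose to 64.6 and 59.7 RPKM in Naa10-KO, against 25.6 and 28.2 RPKM in WT (adjusted p = 0.0429). That call ended in the fit without small RNA rows and rows at 0, which called 0 rows.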
